A study of Homo sapiens with 6 samples.

Results

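Of the 10 genes of prostaglandin synthesis, breakdown and reception considered here, PLA2G4A, PTGR1, PTGER4 and HPGD were higher in KM12SM than in SW620 cells. None of the cyclooxygenase or prostaglandin E synthase genes passed limma's test in either direction. With array weights in limma PTGS2 was called higher and PTGS1 lower, but the estimation of these weights did not converge. The genes were taken by symbol from the annotation of the array: PLA2G2A, PLA2G4A, PTGS1, PTGS2, PTGES, PTGES2, HPGD, PTGR1, PTGER2 and PTGER4. Each of the 10 was measured by 1 probe set (the group of probes that reports 1 gene), out of 21448 probe sets and 17687 named genes on the array. KM12SM is a colorectal cancer line that was derived by successive inoculation of KM12 cells in mice and is highly metastatic to liver, while SW620 came from a lymph node metastasis of another colorectal cancer and is poorly metastatic to liver. Total RNA of 3 KM12SM and 3 SW620 samples was hybridised to Clariom S human arrays. For these cells the study's methods name no treatment. They give serum-containing medium for growing the lines, without saying which medium was used when RNA was taken. Each line stands for 1 tumour, so that metastatic behaviour and tumour of origin cannot be told apart.

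Prostaglandins are lipid signals made on demand from arachidonic acid. Phospholipases A2 free arachidonic acid from membrane lipids, the cyclooxygenases PTGS1 and PTGS2 turn it into prostaglandin H2, and terminal synthases such as PTGES make prostaglandin E2 from that intermediate. Prostaglandin E2 acts on neighbouring cells through the receptors EP1 to EP4, of which EP2 (PTGER2) and EP4 (PTGER4) raise cyclic AMP, and it is inactivated inside cells by the dehydrogenase HPGD followed by a reductase such as PTGR1. In the colon this pathway is known as the target of aspirin-like drugs, PTGS2 is often induced in colorectal tumours, and HPGD is often reduced in them. The arrays measured mRNA only, and no prostaglandin was measured.

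Values are log2 signals, so that a difference of 1 is a 2-fold change. A gene was called higher or lower in KM12SM where limma gave a two-sided adjusted p under 0.05 over all probe sets, a rule met by 25% of the 21448 probe sets (12.6% higher and 12.4% lower). Of the 10 genes, 4 were called higher and 0 lower, and 6 did not pass. At an unadjusted p under 0.05 limma gave 5 higher and 0 lower, the methods' t-test (named there for comparing groups in general and not for the arrays, where limma is named) gave 4 higher and 0 lower after adjustment, and limma with array weights gave 7 and 1. Among all 21448 probe sets, the methods' t-test called 1499 higher and 1539 lower. Array weights, whose estimation did not converge, called 5050 higher and 5028 lower. All 4 called genes differed at least 2-fold. Thus 4 of the 10 genes were called with at least a 2-fold difference, against 10.5% of all probe sets. The 10 genes were chosen with earlier results of these data known, so that such comparisons with all probe sets are descriptions and not tests. For 7 of the 10 genes every array of one line lay above every array of the other, which was so for 37.7% of all probe sets. The median log2 difference of the 10 genes was 0.39, against 0.01 over all probe sets. It lies between the values of PLA2G2A (0.48) and PTGER2 (0.30), which did not pass. Arrays of the same line correlated at a Pearson r of 0.981 to 0.992 over all probe sets and arrays of different lines at 0.919 to 0.926, with replicate 3 of each line furthest from the other arrays of its line. The RNA came from whole cultures, so that fewer expressing cells and less RNA per cell cannot be told apart. Of 10 markers of colorectal epithelium, limma called 6 higher and VIL1 lower in KM12SM, against 8 and 1 with array weights and 4 and 0 with the methods' t-test. The general epithelial markers EPCAM and KRT8 were bright in both lines, with means of 11.92 and 12.74 in KM12SM and 11.74 and 12.42 in SW620, whereas the intestinal cadherin CDH17 was bright in KM12SM (10.55) and dim in SW620 (5.60).

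**Figure D1:**
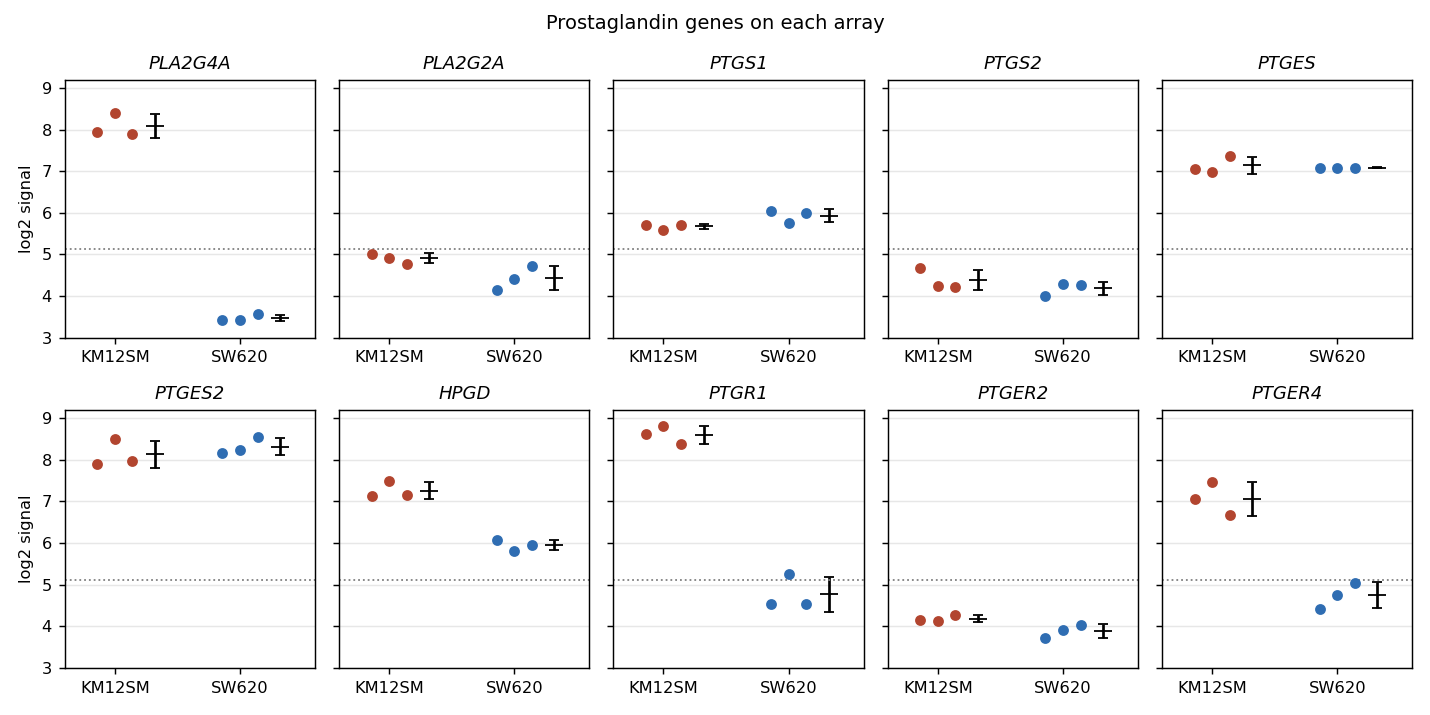
Log2 signal (vertical axis) of the 10 prostaglandin genes on each array, with KM12SM left and SW620 right in each panel. Points are arrays in the order of replicates 1 to 3, the black marks give mean and SD, and the dotted line marks 5.12, the 25th percentile of all probe set means. PLA2G4A, PTGR1, PTGER4 and HPGD show wide gaps between the lines, and the cyclooxygenases and synthases lie close together.

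PLA2G4A had the largest log2 difference of the 10 genes. It encodes cytosolic phospholipase A2 alpha, the calcium-regulated enzyme that prefers arachidonic acid in membrane phospholipids. Its log2 signals were 7.95, 8.41 and 7.90 on the KM12SM arrays, against 3.43, 3.42 and 3.56 on the SW620 arrays. All KM12SM arrays were thus far above all SW620 arrays, with a gap of 4.34 between the closest pair. The mean was 8.09 ± 0.28 in KM12SM and 3.47 ± 0.08 in SW620 (SD, n = 3 each), 24.5-fold higher in KM12SM (log2 difference 4.62, standard error 0.18, adjusted p = 3.16e-11 from limma). The SW620 signals lay below 5.12, the 25th percentile of all probe set means, and signals under it are called dim here. No detection calls were used, and the fold may be limited by background where 1 line is dim.

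PLA2G2A encodes the secreted group IIA phospholipase A2, a bactericidal enzyme of the gut that modifies intestinal tumour number in mice. Its log2 signals were 5.02, 4.92 and 4.78 on the KM12SM arrays, against 4.14, 4.42 and 4.72 on the SW620 arrays. The lines did not overlap, but the closest arrays were only 0.06 apart. The mean was 4.91 ± 0.12 in KM12SM and 4.43 ± 0.29 in SW620 (SD, n = 3 each), a log2 difference of 0.48 (95% interval 0.09 to 0.87) with limma's adjusted p at 0.0715, short of the threshold. Without SW620 replicate 3, its highest SW620 array, the difference was 0.63 and passed (adjusted p = 0.0198 from limma).

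Neither cyclooxygenase gene passed limma's test. PTGS2, the inducible cyclooxygenase, had log2 signals of 4.67, 4.25 and 4.23 on the KM12SM arrays, against 4.0, 4.29 and 4.26 on the SW620 arrays. The arrays overlapped, and the highest and the lowest signals were both on replicate 1. The mean was 4.38 ± 0.25 in KM12SM and 4.18 ± 0.16 in SW620 (SD, n = 3 each), and the 95% interval of the log2 difference of 0.20 ran from -0.19 to 0.59 (adjusted p = 0.495 from limma). PTGS2 was dim in both lines, and with array weights its difference was 0.48 and passed (adjusted p = 0.00568 from limma). The largest of these weights, 6.57, went to SW620 replicate 1, the array with the lowest PTGS2 signal.

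PTGS1, the cyclooxygenase that many tissues express without a stimulus, had log2 signals of 5.72, 5.60 and 5.70 on the KM12SM arrays, against 6.05, 5.76 and 6.0 on the SW620 arrays. It was the only one of the 10 genes whose SW620 arrays all lay above its KM12SM arrays, by 0.04 at the closest. The mean was 5.67 ± 0.06 in KM12SM and 5.94 ± 0.16 in SW620 (SD, n = 3 each), a log2 difference of -0.26 (95% interval -0.62 to 0.09, adjusted p = 0.298 from limma). With array weights it was -0.33 and passed (adjusted p = 0.0250 from limma). SW620 replicate 1, which had the largest weight (6.57), also had the highest PTGS1 signal.

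PTGS2 and PLA2G4A are neighbours among the protein-coding genes of chromosome 1 in the RefSeq annotation, with no other protein-coding gene between them. PLA2G4A had a log2 difference of 4.62 and PTGS2 one of 0.20 that did not pass. The 250 bases before their starts are shown for this reason, together with those of PTGER4, as an example of a higher gene with a GC-rich promoter. The sequences are those of RefSeq on GRCh38.p14, printed 5′ to 3′ on the strand of the gene. Capitals mark matches, on either strand, to the motifs searched.
PLA2G4A, chr1:186828699-186828948, plus strand: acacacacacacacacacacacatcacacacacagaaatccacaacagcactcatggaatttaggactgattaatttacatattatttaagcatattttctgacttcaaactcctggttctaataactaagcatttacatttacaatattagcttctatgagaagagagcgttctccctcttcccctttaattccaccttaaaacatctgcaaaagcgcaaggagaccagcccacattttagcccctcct
PTGS2, chr1:186680424-186680673, minus strand: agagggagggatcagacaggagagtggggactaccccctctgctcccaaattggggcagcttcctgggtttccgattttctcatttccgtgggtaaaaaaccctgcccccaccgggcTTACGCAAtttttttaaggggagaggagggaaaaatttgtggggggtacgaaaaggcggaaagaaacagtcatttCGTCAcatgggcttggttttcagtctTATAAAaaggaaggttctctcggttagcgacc
PTGER4, chr5:40679665-40679914, plus strand: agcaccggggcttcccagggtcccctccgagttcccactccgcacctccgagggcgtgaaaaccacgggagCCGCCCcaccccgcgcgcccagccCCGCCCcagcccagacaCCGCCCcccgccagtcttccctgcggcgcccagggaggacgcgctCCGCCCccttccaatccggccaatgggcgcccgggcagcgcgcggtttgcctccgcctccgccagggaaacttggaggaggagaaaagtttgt

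The motifs searched on both strands were the TATA box (TATAAA), the cyclic AMP response element (TGACGTCA) and its core (TGACG), which the full element contains, the C/EBP motif (TTGCGNAA), the SP1 motif (GGGCGG), the E-box (CACGTG), the antioxidant response element (TGACNNNGC), which can overlap the core, and the NF-kappaB motif. Windows reached from 250 bases before to 50 bases after a start. Upstream of PTGS2, the TATA box lay at bases -32 to -27 from the start, the core at -58 to -54 and the C/EBP match at -133 to -126. Among all 35116 promoter windows of RefSeq, 11.5% held the TATA box, 24.6% the core and 0.891% the C/EBP match. The PLA2G4A window, with 38.8% G and C in its 250 upstream bases against a median of 58% over all windows, held no match to any of these motifs. The PTGER4 window held 4 SP1 matches in 72.8% G and C, and 45% of all windows held at least 1. Of the 16 windows of the 10 genes, 10 held an SP1 match, 5 the antioxidant response element, 2 the E-box and 2 the TATA box. The full cyclic AMP response element and the NF-kappaB pattern searched were in 0 of them. This NF-kappaB pattern had most of its letters fixed, so that sites spelled otherwise were not counted. The 0 therefore does not show that the windows, that of PTGS2 included, lack NF-kappaB sites. The windows with the antioxidant response element belonged to PLA2G2A, PTGES2 and PTGS1. Windows of a gene can overlap, and the PLA2G2A matches at -50 to -42 and -91 to -83 were 1 site seen from different starts. Over all windows the antioxidant response element was found in 13.3%, the E-box in 7.26%, the full cyclic AMP response element in 1.85% and the NF-kappaB pattern searched in 1.91%. These matches describe letters in a window and were not tested for use.

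The prostaglandin E synthases also showed no difference that passed. PTGES, the membrane-bound synthase that works with PTGS2, had log2 signals of 7.06, 6.99 and 7.37 on the KM12SM arrays, against 7.09, 7.08 and 7.09 on the SW620 arrays. The SW620 arrays were almost identical and lay inside the range of the KM12SM arrays. The mean was 7.14 ± 0.20 in KM12SM and 7.09 ± 0.01 in SW620 (SD, n = 3 each), and the 95% interval of the log2 difference of 0.05 ran from -0.31 to 0.42 (adjusted p = 0.869 from limma). PTGES2, another membrane-associated enzyme named for this activity, had log2 signals of 7.90, 8.51 and 7.98 on the KM12SM arrays, against 8.16, 8.24 and 8.56 on the SW620 arrays. These ranges overlapped, with means of 8.13 ± 0.33 in KM12SM and 8.32 ± 0.21 in SW620 (SD, n = 3 each) and a log2 difference of -0.19 (95% interval -0.61 to 0.23, adjusted p = 0.559 from limma). For PTGS1, PTGS2, PTGES and PTGES2, the intervals of the single genes reached no further than -0.62 and 0.59. PTGS2 was dim in both lines, so that background may limit its difference and interval. With 3 arrays per line, differences inside the interval of each gene were not excluded.

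**Figure D2:**
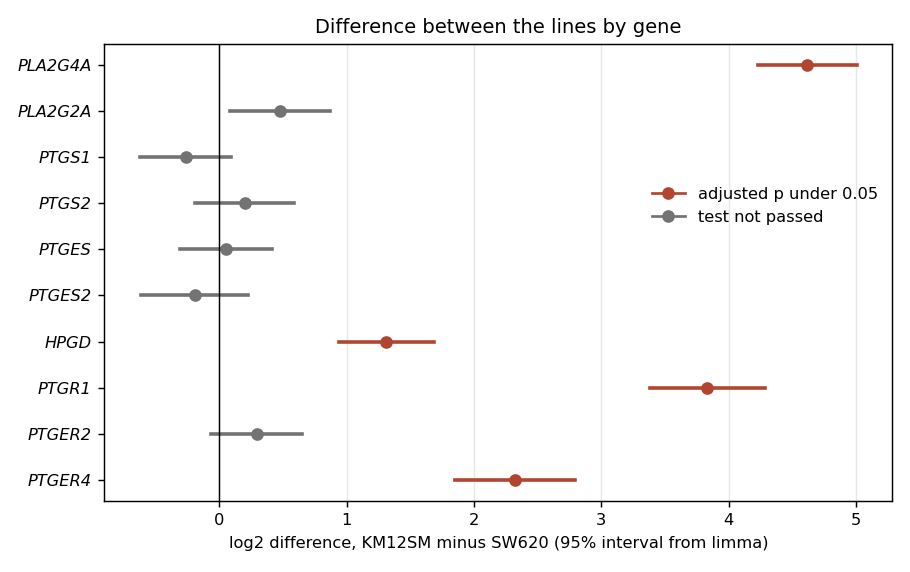
Log2 difference between KM12SM and SW620 (horizontal axis) with its 95% interval from limma for the 10 genes, ordered from arachidonic acid release at the top to receptors at the bottom. PLA2G4A (4.62), PTGR1 (3.83), PTGER4 (2.32) and HPGD (1.31) lie clear of 0, and the cyclooxygenase and synthase intervals all include 0.

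HPGD and PTGR1, genes of both steps of prostaglandin E2 inactivation, were higher in KM12SM. PTGR2, which catalyses the same reduction as PTGR1 and is described below, was 5.04-fold lower. HPGD, the 15-hydroxyprostaglandin dehydrogenase that begins the inactivation, had log2 signals of 7.14, 7.50 and 7.15 on the KM12SM arrays, against 6.07, 5.82 and 5.96 on the SW620 arrays. The lines were separated by a gap of 1.07, larger than the spread of either line. The mean was 7.26 ± 0.21 in KM12SM and 5.95 ± 0.13 in SW620 (SD, n = 3 each), 2.49-fold higher in KM12SM (log2 difference 1.31, standard error 0.17, adjusted p = 2.97e-05 from limma). PTGR1, which reduces the 15-keto products of HPGD and also oxidises leukotriene B4, had log2 signals of 8.63, 8.81 and 8.37 on the KM12SM arrays, against 4.53, 5.26 and 4.53 on the SW620 arrays. Replicate 2 was the highest array in both lines, and the gap between the lines was 3.11. The mean was 8.60 ± 0.22 in KM12SM and 4.77 ± 0.42 in SW620 (SD, n = 3 each), 14.2-fold higher in KM12SM (log2 difference 3.83, standard error 0.21, adjusted p = 1.42e-09 from limma). On 2 of the 3 SW620 arrays PTGR1 was dim.

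Of the receptors that raise cyclic AMP, PTGER4 (EP4) was higher in KM12SM and PTGER2 (EP2) did not pass. PTGER4 had log2 signals of 7.05, 7.48 and 6.67 on the KM12SM arrays, against 4.42, 4.76 and 5.05 on the SW620 arrays. It had the widest spread among the KM12SM arrays of the 10 genes, and the gap of 1.62 between the lines was still larger than the spread within either. The mean was 7.07 ± 0.41 in KM12SM and 4.74 ± 0.32 in SW620 (SD, n = 3 each), 5.0-fold higher in KM12SM (log2 difference 2.32, standard error 0.22, adjusted p = 7.66e-07 from limma). All 3 SW620 arrays were dim, so that background may limit this fold. PTGER2 had log2 signals of 4.15, 4.13 and 4.28 on the KM12SM arrays, against 3.72, 3.91 and 4.04 on the SW620 arrays. All of these signals were dim, and the closest arrays of the lines lay 0.09 apart. Its means were 4.19 ± 0.08 in KM12SM and 3.89 ± 0.16 in SW620 (SD, n = 3 each), with a log2 difference of 0.30 (95% interval -0.06 to 0.65, adjusted p = 0.235 from limma).

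The wider pathway was read from 7 lists of genes around these 10. Of the 94 other genes measured, 17 were called higher and 8 lower in KM12SM, 26.6% against 25% of all probe sets, so that the share of changed genes was near that of the array as a whole. Their median log2 difference was 0.07, against 0.01 over all probe sets. With the methods' t-test 11 rather than 17 were called higher, and with array weights 32 were called higher and 16 lower. Over all 21448 probe sets the methods' t-test called 1499 higher and 1539 lower, and array weights 5050 and 5028. By list, limma's calls ran from 0 of 14 genes of the leukotriene and lipoxygenase arm to 11 of 18 genes of arachidonate supply.

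**Figure D3:**
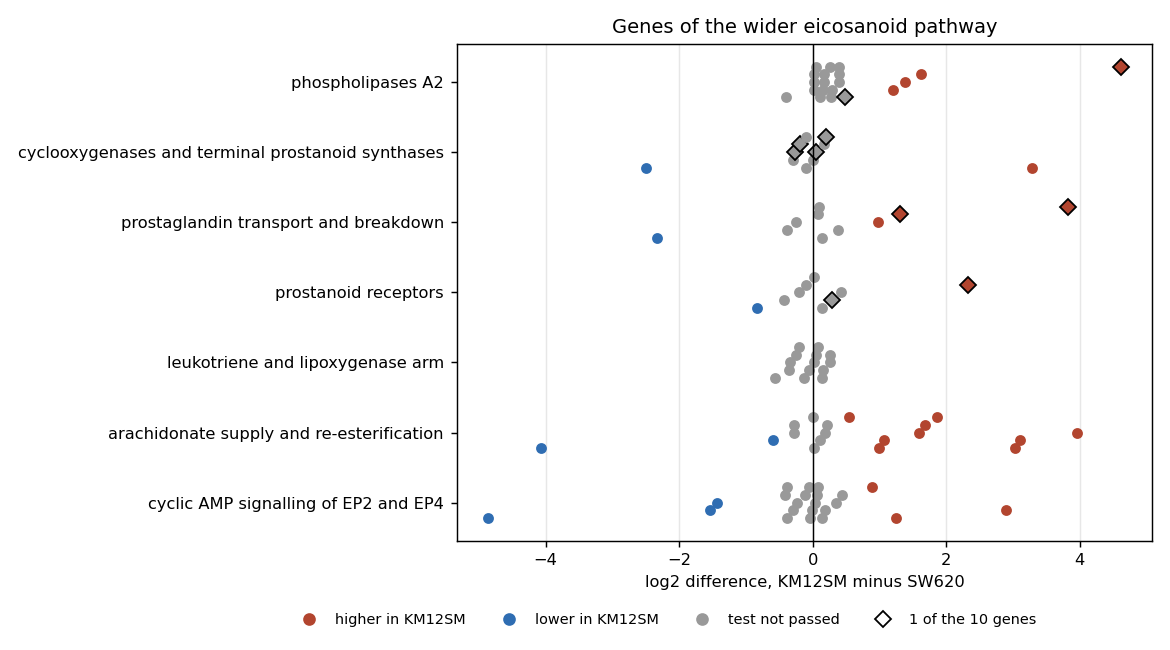
Log2 difference between KM12SM and SW620 (horizontal axis) of every measured gene in the 7 lists, one list per row. Diamonds are the 10 prostaglandin genes, and colours give limma's call, without array weights, at an adjusted p under 0.05. In this fit the leukotriene arm holds 0 called genes and arachidonate supply holds 9 higher and 2 lower.

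Among 18 other phospholipases A2, 3 were higher, 0 lower and 15 did not pass, against 12.6% higher and 12.4% lower of all probe sets. Their median log2 difference was 0.22. At an unadjusted p under 0.05 limma gave 5 higher and 0 lower, while array weights gave 9 and 0 and the methods' t-test 1 and 0 after adjustment. PLA2G7, which hydrolyses platelet-activating factor rather than arachidonoyl lipids, had log2 signals of 5.02, 5.14 and 4.93 on the KM12SM arrays, against 3.61, 3.50 and 3.09 on the SW620 arrays (log2 difference 1.63, adjusted p = 4.67e-06 from limma). PLAAT3, a calcium-independent phospholipase of fat cells, was higher by 1.38 (adjusted p = 0.000142 from limma), with 10.44, 10.35 and 9.69 on the KM12SM arrays, against 8.99, 8.86 and 8.48 on the SW620 arrays. The secreted group X enzyme PLA2G10 was higher by 1.20 (adjusted p = 0.000861 from limma), and its KM12SM arrays (6.53, 7.22 and 6.22) all lay above its SW620 arrays (5.53, 5.25 and 5.60). PLA2G7 was dim on all SW620 arrays, and the differences of these 3 genes were all smaller than that of PLA2G4A. PLAAT3 and PLA2G10 did not pass the methods' t-test (adjusted p = 0.0535 and 0.0899).

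Of 7 other terminal prostanoid synthases, TBXAS1 was higher, AKR1C3 lower and 5 did not pass, beside 25% called among all probe sets. TBXAS1, the thromboxane synthase known from platelets and macrophages, had log2 signals of 8.21, 8.21 and 7.77 on the KM12SM arrays, against 5.18, 4.87 and 4.26 on the SW620 arrays. This is 9.80-fold higher in KM12SM (log2 difference 3.29, standard error 0.22, adjusted p = 1.57e-08 from limma), and 2 of the 3 SW620 arrays were dim. Of 4 platelet markers, 0 were higher and ITGA2B was lower, and the level of the list (log2 of its summed linear signals) was 7.997 to 8.26 in KM12SM and 8.16 to 8.57 in SW620. Of 7 leukocyte and macrophage markers, CD68 alone was higher, by 0.87, and the summed level was 9.38 to 9.39 in KM12SM and 9.07 to 9.31 in SW620, whereas the pan-leukocyte PTPRC was dim at 3.63 to 4.51 in KM12SM and 3.80 to 4.08 in SW620. Their part in the TBXAS1 difference was not tested. AKR1C3, an aldo-keto reductase that makes F-series prostaglandins, ran the other way, with 7.56, 7.98 and 7.34 on the KM12SM arrays, against 10.09, 10.16 and 10.11 on the SW620 arrays (log2 difference -2.49, standard error 0.19, adjusted p = 4.72e-08 from limma). The cytosolic prostaglandin E synthase PTGES3 was bright in both lines and did not pass (log2 difference -0.30, adjusted p = 0.219 from limma), nor did PTGDS, a prostaglandin D synthase (-0.11), or PTGIS, the prostacyclin synthase (0.16).

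The reductases of 15-keto prostaglandins were divided between the lines. PTGR2, which catalyses the same reduction as PTGR1, had log2 signals of 5.54, 6.04 and 6.26 on the KM12SM arrays, against 8.40, 8.40 and 8.04 on the SW620 arrays. It was 5.04-fold lower in KM12SM (log2 difference -2.33, standard error 0.20, adjusted p = 2.80e-07 from limma), opposite in sign to PTGR1. PTGR3, a related reductase, was higher in KM12SM by 0.98 (7.96, 8.15 and 7.68 on the KM12SM arrays, against 7.03, 7.33 and 6.49 on the SW620 arrays, adjusted p = 0.00277 from limma), and did not pass the methods' t-test (adjusted p = 0.108). The prostaglandin importer SLCO2A1, which brings the substrate to HPGD, and the exporter ABCC4 did not pass, with log2 differences of 0.14 and -0.25. Of the 8 other genes of transport and breakdown, 1 was thus higher, 1 lower and 6 did not pass. The share called over all probe sets was 25%.

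**Figure D4:**
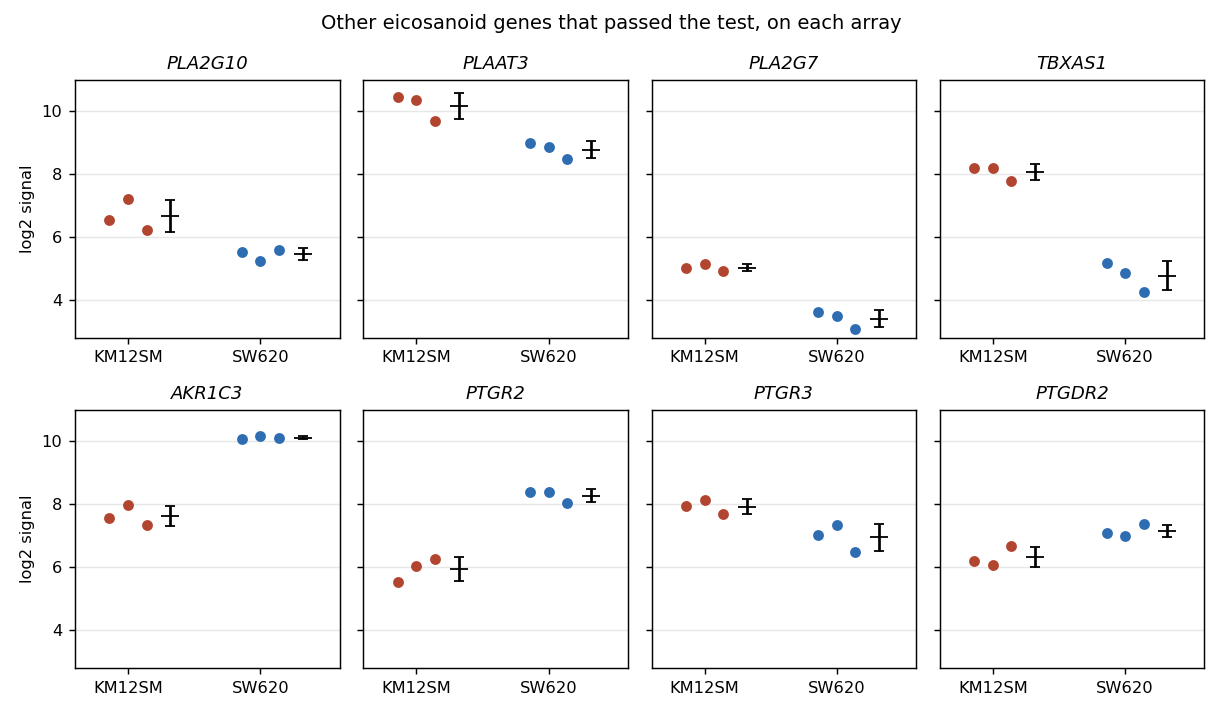
Log2 signal (vertical axis) on each array of 8 other genes that passed the test, with KM12SM left and SW620 right. Points are arrays and black marks give mean and SD. AKR1C3, PTGR2 and PTGDR2 are lower in KM12SM and the other 5 genes are higher.

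Of 7 other prostanoid receptors, 0 were higher, PTGDR2 was lower and 6 did not pass, beside 25% called among all probe sets. PTGDR2, a prostaglandin D2 receptor of T helper cells and eosinophils, had log2 signals of 6.21, 6.08 and 6.68 on the KM12SM arrays, against 7.08, 7.0 and 7.37 on the SW620 arrays (log2 difference -0.83, standard error 0.19, adjusted p = 0.00449 from limma). It lost its call with the methods' t-test (adjusted p = 0.0876). The other E-type receptors PTGER1 and PTGER3 had log2 differences of -0.10 and -0.43, and the prostacyclin receptor PTGIR had 0.42, none past the test. PTGER4 was the only one of the 9 prostanoid receptors measured that limma called higher in KM12SM in the fit reported here. Of the 7 others, 1 was higher at an unadjusted p under 0.05, 2 were called higher with array weights and 0 with the methods' t-test.

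Downstream of EP2 and EP4, 3 of 22 genes of cyclic AMP signalling were higher, 3 lower and 16 did not pass in limma. This share of called genes was near the 25% called over all probe sets. Array weights gave 6 higher and 7 lower, and the methods' t-test 2 and 4. PRKACB, a catalytic subunit of protein kinase A, had log2 signals of 3.95, 4.03 and 4.39 on the KM12SM arrays, against 8.90, 9.26 and 8.79 on the SW620 arrays. It was 29.0-fold lower in KM12SM (log2 difference -4.86, standard error 0.19, adjusted p = 2.74e-11 from limma), a fold that background may limit because all 3 KM12SM arrays were dim, while another catalytic subunit, PRKACA, had a difference of -0.29 that did not pass (adjusted p = 0.238). The regulatory subunit PRKAR2B was higher in KM12SM (7.46, 7.34 and 7.30 on the KM12SM arrays, against 4.38, 4.69 and 4.32 on the SW620 arrays, log2 difference 2.90, adjusted p = 3.03e-09 from limma), with all SW620 arrays dim, and so was PRKAR2A (0.89, adjusted p = 0.00320). Of the phosphodiesterases that degrade cyclic AMP, PDE4D (-1.54) and PDE4A (-1.44) were lower. PDE4B was higher by 1.25 but dim in both lines, with 4.65, 4.72 and 4.92 on the KM12SM arrays, against 3.21, 3.43 and 3.90 on the SW620 arrays, and was not tested once dim probe sets were left out. PRKAR2A did not pass the methods' t-test (adjusted p = 0.0887).

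Upstream, 9 of 18 genes of arachidonate supply and re-esterification were higher in KM12SM, 2 lower and 7 did not pass in limma. Over all probe sets, 12.6% were called higher and 12.4% lower. The median log2 difference of the 18 genes was 0.38. Array weights gave 10 higher and 2 lower, and the methods' t-test 7 and 1. FADS2, the desaturase that opens the route from linoleic to arachidonic acid, had log2 signals of 11.67, 11.63 and 11.80 on the KM12SM arrays, against 7.74, 7.84 and 7.63 on the SW620 arrays. It was 15.6-fold higher in KM12SM (log2 difference 3.96, standard error 0.16, adjusted p = 5.81e-11 from limma). MGLL, which frees arachidonic acid from an endocannabinoid, was higher by 3.10, with 8.0, 8.16 and 7.77 on the KM12SM arrays, against 4.81, 5.44 and 4.38 on the SW620 arrays (adjusted p = 4.72e-08 from limma), of which 2 were dim. ACSL5, an acyl-CoA synthetase of the gut, was higher by 3.04 (adjusted p = 9.28e-07 from limma), and its replicate 3 was the lowest array in both lines (9.86, 9.85 and 8.63 on the KM12SM arrays, against 6.57, 6.74 and 5.92 on the SW620 arrays). LPCAT2, which returns fatty acids to lysophospholipids and makes platelet-activating factor, was 16.8-fold lower in KM12SM, at 4.37, 4.34 and 4.30 on the KM12SM arrays, against 8.57, 8.76 and 7.88 on the SW620 arrays (log2 difference -4.07, adjusted p = 6.19e-10 from limma). Its KM12SM arrays were all dim, so that background may limit this fold too. The other lower gene, the diacylglycerol lipase DAGLB, had a difference of -0.59 (adjusted p = 0.0396 from limma) but lost its call with the methods' t-test (adjusted p = 0.193) and in limma when KM12SM replicate 1, KM12SM replicate 3, SW620 replicate 1 or SW620 replicate 2 was left out (adjusted p between 0.0503 and 0.152).

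In the leukotriene and lipoxygenase arm, which competes for the same arachidonic acid, none of the 14 genes measured passed limma's test. Among all probe sets 25% passed it. Differences of the 14 genes ran from -0.56 to 0.26 with a median of -0.02. GGT1, a peptidase of leukotriene C4 breakdown, had the largest difference (-0.56, adjusted p = 0.0534 from limma), and was the 1 gene with an unadjusted p under 0.05. The methods' t-test called 0 of the 14 and array weights called 1 higher and 3 lower.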

How the data were processed

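Total RNA of KM12SM and SW620 cells was measured on 6 arrays (Clariom S, human), with 3 for either line, and each array was assigned to its line by its label. The authors deposited log2 signals per probe set, normalised and summarised by RMA in Transcriptome Analysis Console (its version is not given in the sources here) and rounded to 2 decimals, from 2.36 to 13.79. The supplementary methods call the arrays independent RNA replicates, without saying whether the cultures were separate, so p-values reflect only how these samples varied, possibly for technical reasons. Arrays give no counts, and their number limits precision. All columns belonged to the 6 samples.

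KM12SM minus SW620 was fitted over all 21448 probe sets with limma 3.58.1 in R 4.3.3 (lmFit, eBayes, no block, no filter), the kind of test that the study's methods name for the arrays, with Benjamini-Hochberg adjustment. The code was tested on simulated data. For genes with several probe sets the brightest was used. The 10 genes and all lists were chosen with earlier results of these data known. All 10 genes are named, with up to 4 called genes of each list by size of the difference. DAGLB, PRKAR2A, PDE4B and the uncalled genes beside them were named after their values were seen. Of 107 other listed genes, 94 had a named probe set, PLAAT3 and PTGR3 through older symbols, and the rest were not analysed here. Promoters come from RefSeq tables (GRCh38.p14), in which all 10 genes matched. For the array annotation no build was given in the sources used here.

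Alternatives were quantile normalisation, median centring, leaving out probe sets under the 25th percentile, a replicate block, trend and robust eBayes, array weights, the methods' t-test (equal variances, same adjustment; the methods name it for group comparisons in general), the mean of a gene's probe sets, and leaving out single arrays or replicate 3 of both lines.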

Additional observations from a re-analysis of the deposited data

How the results depend on the processing

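PLA2G4A, PTGR1, PTGER4 and HPGD were called higher in KM12SM under all 15 alternatives. PLA2G2A, PTGER2 and PTGS2 were not tested once probe sets under the 25th percentile were left out. With array weights, which ran from 0.303 for SW620 replicate 3 to 6.57 for SW620 replicate 1 and whose estimation did not converge, 7 of the 10 genes were called higher and 1 lower: PLA2G2A (0.78), PTGS2 (0.48) and PTGER2 (0.41) were added as higher and PTGS1 (-0.33) as lower, and PTGES changed sign to -0.0095. Array weights also gave 32 higher and 16 lower genes of the wider pathway, and 5050 higher and 5028 lower probe sets in all, against 2708 and 2654 in the fit reported. The methods' t-test gave 1499 higher and 1539 lower probe sets, and 11 higher genes of the wider pathway.

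Without replicate 3 of both lines, PLA2G2A passed (0.69), and PTGES (-0.06) and PTGES2 (0.005) changed sign, neither past the test. Leaving out 1 array at a time gave 4 to 5 higher genes of the 10 and 0 lower, log2 differences of 0.34 to 0.63 for PLA2G2A and -0.062 (without KM12SM replicate 3) to 0.13 for PTGES, 16 to 18 higher and 7 to 9 lower genes of the wider pathway, and 2102 to 2688 higher and 1952 to 2902 lower probe sets.

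The labels give both lines the replicate numbers 1 to 3, and the deviations of arrays of the same number correlated at r = 0.0577, 0.0951 and 0.149 over all probe sets. Arrays of different numbers gave r from -0.142 to 0.100. The study's methods name no block for the arrays, so the fit reported did not pair them by number. The quartiles of arrays of the same number were nevertheless close (lower quartile 5.07, 5.01 and 5.15 for KM12SM replicates 1 to 3, against 5.06, 5.01 and 5.14 for SW620), and whether they shared a processing step was not tested. With the replicate block, 2888 probe sets were higher and 2793 lower, and the calls of the 10 genes were the same (4 higher, 0 lower). The cause of the differences between settings was not tested.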
